A study of Mus musculus with 28 samples.

Results

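The genes of the cytosolic ribosomal proteins were followed through neural differentiation of mouse P19 cells, an established embryonal carcinoma line that is pluripotent in culture. The members were the protein-coding genes whose symbol starts with Rpl or Rps and a number, with Rplp0, Rplp1, Rplp2 and Rpsa. The Rps6k kinases and the pseudogenes with a -ps symbol were left out. The rule gave 88 of 55385 gene identifiers, 54 of the large subunit and 34 of the small subunit, and used no measured value. Of these, 77 encode the ribosomal proteins proper and 11 are paralogs or genes that only share the name. The members lay on 19 chromosomes, 4 of them on the X chromosome. A filter on low counts left 84 for testing, among them all 77 proper members. Rpl10l, Rpl32l, Rpl39l and Rpl3l had at most 0.505 CPM, counts scaled to a common library size, in any library and were not tested.

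Polyadenylated RNA was sequenced from 2 libraries in each of 5 groups. The day 0 group held undifferentiated P19 cells in medium with serum. The MS-275 group at day 2 received 1 µM retinoic acid and, after the first day, 1 µL of MS-275 from a stock of 10 mM, a compound that inhibits class I histone deacetylases. The DMSO group at day 2 received retinoic acid and 1 µL of the solvent. The day 4 group held neural stem and progenitor cells after 4 days in 1 µM retinoic acid. The day 8 group held neurons, which were replated on poly-D-lysine in serum-free medium with B27 after those 4 days. The final concentration of MS-275 is not used here, and no group received MS-275 without retinoic acid. Peak lists of H3K9ac, H3K9cr (crotonylated lysine 9), H3K18la (lactylated lysine 18) and ATAC-seq were available for day 4, and those of the histone marks for both day 2 arms.

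The ribosome is built from a small subunit, which reads the mRNA, and a large subunit, which joins the amino acids. Each carries ribosomal RNA and a fixed set of proteins that are made in near equal amounts. The mRNAs of these proteins, and of several translation factors, begin with a C followed by a run of pyrimidines, the terminal oligopyrimidine or TOP sequence. The kinase mTORC1 controls translation of such mRNAs, and Myc is a known driver of ribosome production in growing cells.

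Library totals lay between 18115926 and 19586374 estimated counts. The 2 libraries of a group differed beyond sampling noise, with a chi-square per degree of freedom of 2.76 to 6.07 over genes. The series calls its replicates biological, without saying how separate the cultures were, so p-values measure the spread between these libraries. Summed CPM of 7 pluripotency markers was 2363 and 2342 at day 0, 125 and 131 with MS-275 and 52.0 and 49.7 with DMSO at day 2, 3.31 and 4.94 at day 4 and 55.3 and 65.5 at day 8. Summed CPM of 6 neuron markers was 335 and 349 at day 0, 326 and 339 with MS-275 and 296 and 272 with DMSO at day 2. It was 2219.6 and 2129.8 at day 4 and 3021 and 2841 at day 8. By day 4, 5 of the 6 were called higher than at day 0 and 1 lower. Stmn2 went down, from 235 and 244 CPM at day 0, most of the sum there, to 169 and 164 at day 4. With DMSO against day 0, 3 were called higher and 3 lower. For 5 neural progenitor markers the sum was 213 and 222 at day 0, 722 and 668 with MS-275 and 489 and 491 with DMSO at day 2. It was 761 and 699 at day 4 and 984 and 1001 at day 8, so it was highest in the libraries labelled neurons. Of these 5 markers, 2 were called higher at day 8 than at day 4, 2 lower and 1 was not called. With MS-275 against DMSO, 2 of them were called higher and 3 lower. Nes made up most of that sum, at 645 and 587 CPM with MS-275 and 349 and 354 with DMSO. Sox1 had 31.8 and 32.9 CPM with MS-275, against 109 and 106 with DMSO. The pluripotency sum was thus lowest at day 4 and higher again at day 8: all 6 of its tested markers were called higher at day 8 than at day 4, with a median log2 fold change of 3.95, where the labels go from progenitors to neurons. Their part in the day 8 results was not tested. Mesenchyme markers moved too: their 6 genes summed to 154 and 144 CPM at day 0, 503 and 461 with MS-275 and 34.7 and 38.4 with DMSO at day 2, 748 and 854 at day 4 and 1183 and 1231 at day 8. At day 4 against day 0, 5 of them were called higher and 1 lower. Acta2 went down, from 109 and 107 CPM at day 0 to 12.8 and 14.8 at day 4. The 4 glia markers, Gfap and Aqp4 among them, summed to at most 17.4 CPM in any library.

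RefSeq promoter sequences of the GRCm38.p6 build were matched to 68 of the 88 members by symbol. A start with a pyrimidine run, defined as a C within 2 bases of the annotated start followed by at least 4 more C or T, was found in 23 of 68 members (33.8%). The same search found one in 10.6% of all 27025 genes with a sequence and in 12.1% of the 12358 such genes that were tested. The 50 bases around the start, 30 before it and 20 from it on, are printed on the strand of the gene. The run is in capitals for Rps6, the S6 kinase target (chr4:86857348-86857397, minus strand), Rps18 (chr17:33955646-33955695, minus strand), Rpl12 (chr2:32961682-32961731, plus strand), Rpl27a (chr7:109519165-109519214, plus strand) and Rpl28 (chr7:4792935-4792984, plus strand). All 5 fell at day 4 against day 0 and at day 8 against day 4.
Rps6: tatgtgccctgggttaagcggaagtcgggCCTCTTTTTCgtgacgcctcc
Rps18: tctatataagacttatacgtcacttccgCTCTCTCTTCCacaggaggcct
Rpl12: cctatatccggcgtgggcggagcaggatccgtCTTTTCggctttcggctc
Rpl27a: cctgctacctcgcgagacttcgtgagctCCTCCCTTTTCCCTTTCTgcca
Rpl28: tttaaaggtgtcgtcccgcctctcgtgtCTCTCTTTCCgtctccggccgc

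A run within 2 bases of the start was not found in Rpl7l1 (chr17:46782637-46782686, minus strand), Rps19bp1 (chr15:80264287-80264336, minus strand), Rpl36a (chrX:134585624-134585673, plus strand) and Rplp0 (chr5:115559437-115559486, plus strand), which rose in at least 1 comparison and are shown without capitals. Members with a run also rose, and most members without one fell, as counted with the split by start. Letters of the same kind farther from the start were not counted.
Rpl7l1: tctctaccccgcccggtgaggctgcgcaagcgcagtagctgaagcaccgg
Rps19bp1: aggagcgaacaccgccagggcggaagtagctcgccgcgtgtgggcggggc
Rpl36a: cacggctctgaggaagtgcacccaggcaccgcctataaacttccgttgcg
Rplp0: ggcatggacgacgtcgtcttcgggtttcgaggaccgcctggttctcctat

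The letters CCGGAAG, which hold the GGAA core of sites bound by ETS family factors, stood on either strand of the 300-base promoter window in 26 of 68 members (38.2%), against 9.93% of all genes and 17.7% of tested genes. They are in capitals for Rpl11 (chr4:136053374-136053423, minus strand), Rpl38 (chr11:114668550-114668599, plus strand) and Rpl26 (chr11:68901536-68901585, plus strand), where they lie close to the start.
Rpl11: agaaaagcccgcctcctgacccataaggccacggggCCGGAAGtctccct
Rpl38: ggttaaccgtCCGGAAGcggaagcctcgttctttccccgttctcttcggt
Rpl26: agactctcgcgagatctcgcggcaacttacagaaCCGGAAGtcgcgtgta

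The letters TATAAA were found in 8 of 68 members (11.8%), against 15.7% of all genes and 9.03% of tested genes. The E-box CACGTG, which Myc can bind, was found in 6 (8.82%), against 8.09% of all genes and 11.1% of tested genes. Both were searched on both strands of the 300-base window, and each match is a match of letters only.

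The members together took 4.74% and 4.82% of all counts at day 0, 4.16% and 4.11% with MS-275 and 4.37% and 4.18% with DMSO at day 2, 3.52% and 3.60% at day 4 and 2.59% and 2.49% at day 8. No day 4 or day 8 library reached the share of any earlier library, and day 8 lay below day 4 in both libraries. The MS-275 libraries lay just under both DMSO libraries. Both subunits followed the same course: the large-subunit share was 1.61% and 1.55% at day 8 and 2.98% and 3.03% at day 0, and the small-subunit share 0.982% and 0.940% at day 8 and 1.76% and 1.79% at day 0. The ratio of the large to the small subunit moved little, at 1.70 and 1.69 at day 0, 1.73 and 1.73 with MS-275 and 1.71 and 1.69 with DMSO at day 2, 1.61 and 1.62 at day 4 and 1.64 and 1.64 at day 8. Counts given to 300 ribosomal protein pseudogenes with a -ps symbol took 0.333% and 0.316% at day 8 and 0.711% and 0.704% at day 0, so they were lower beside the members. Mitochondrial transcripts took 2.24% and 2.34% at day 8 and 1.52% and 1.44% at day 0, and their part in the shares was not tested. In these bulk libraries, fewer cells with high levels and less RNA per cell cannot be told apart.

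**Figure D1:**
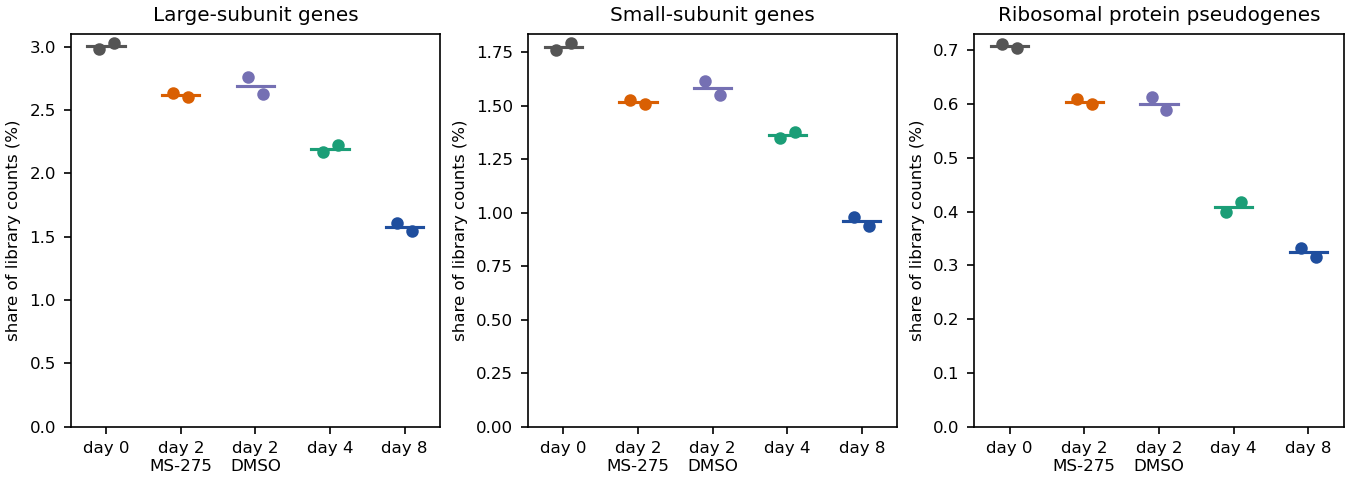
Share of library counts in percent for large-subunit genes, small-subunit genes and ribosomal protein pseudogenes; points are the 2 libraries of a group and bars their mean. All 3 panels step down from day 0 to day 8, and both day 8 libraries are the lowest.

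Of the 84 tested members, 72 had mean CPM that was lower at each step across day 0, day 4 and day 8. At day 8 a member stood at a median of 52.2% of its day 0 level, with a middle 50% of 47.2% to 60.7%. In 82 members both day 8 libraries lay below both day 0 libraries. Rpl12, at 20.03%, kept the least of its day 0 level. Rps18 followed at 34.8% and Rplp1 at 37.6%. At the other end Rpl41 kept 83.7% and Rpl7 83.2%. Rpl37rt, a like-named copy of Rpl37 at 6.62 and 10.9 CPM at day 8 and 7.36 and 7.96 at day 0, was the exception with a day 8 mean above day 0, and its libraries overlapped. These percentages and counts describe the levels and carry no test of day 8 against day 0, and neither count was made over all genes. At day 4 against day 0, both libraries lay below both earlier ones in 70 of 84 members and 7586 of 17789 tested genes. At day 8 against day 4 they did so in 78 members and 5974 tested genes.

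**Figure D2:**
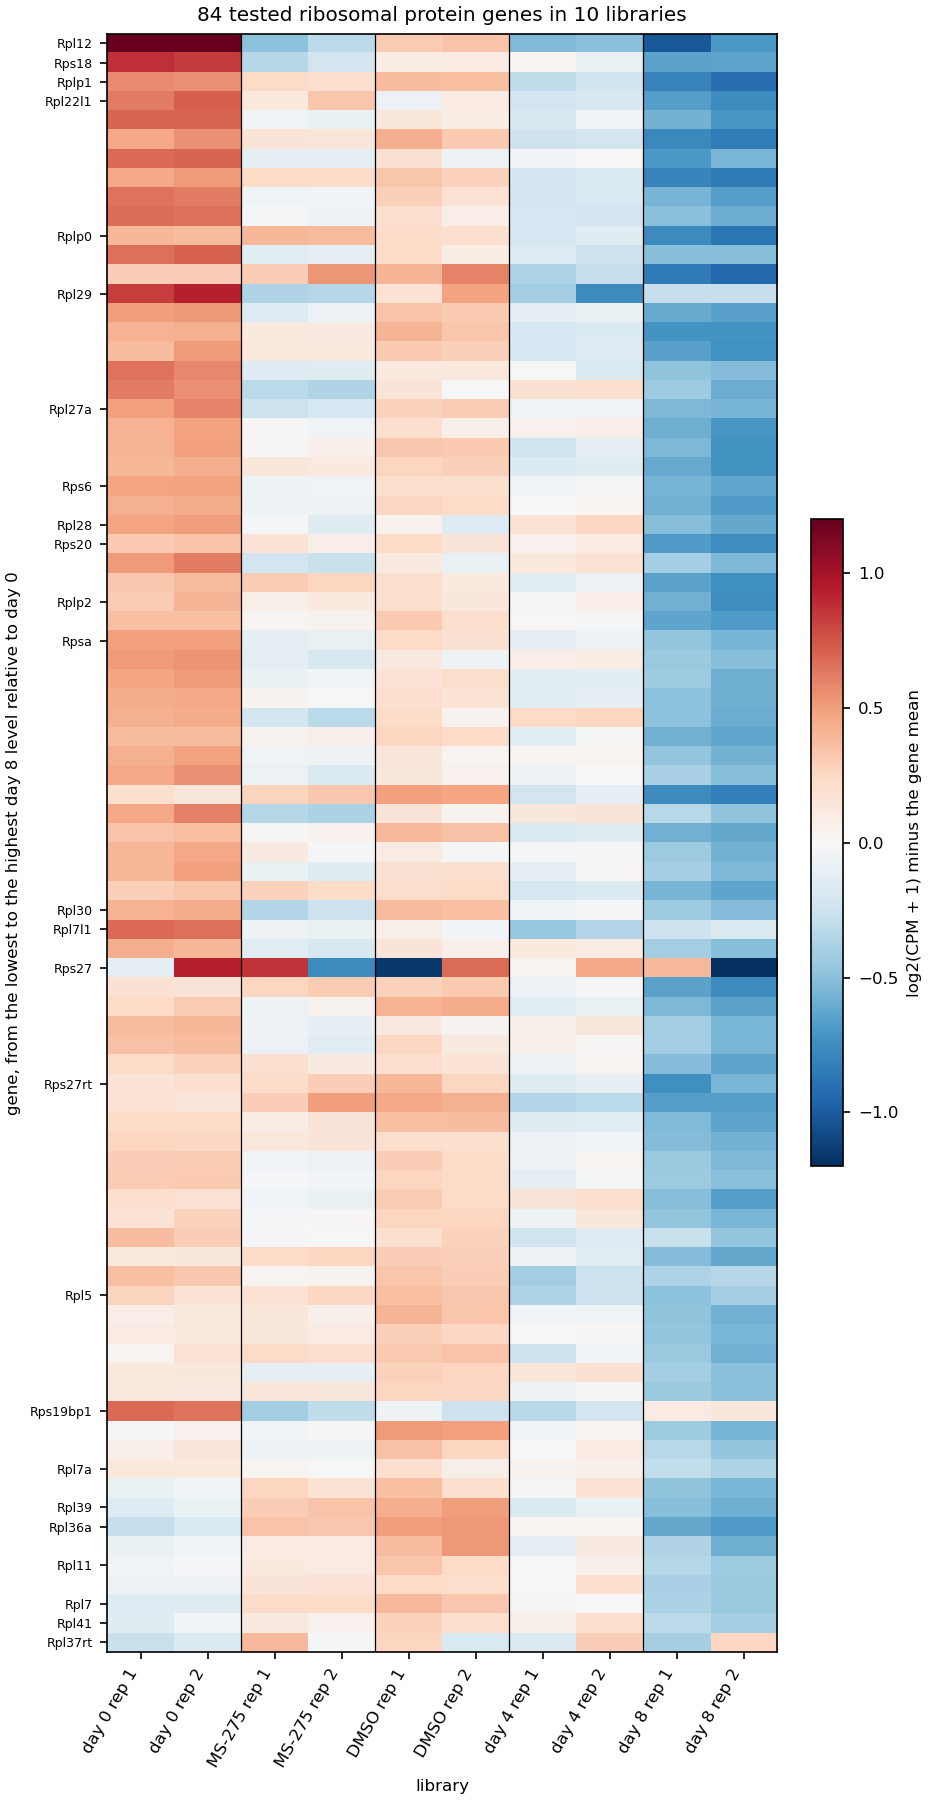
Each row is 1 of the 84 tested members and each column 1 of the 10 libraries; colour is log2(CPM + 1) minus the mean of the gene over the libraries, with red above it, and names mark some of the rows the text describes. Day 8 columns are blue in nearly all rows, most rows near the bottom are highest with DMSO at day 2, and Rps27 changes colour between replicates.

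Day 4 was compared with day 0 to ask how the ribosomal protein genes changed as pluripotent cells became neural progenitors. Of 84 tested members, 68 fell and 4 rose, while 36.1% of all 17789 tested genes were called lower and 36.2% higher (edgeR, adjusted p under 0.05). The median log2 fold change of the members was −0.42 with a middle 50% of −0.61 to −0.24, and that of all genes 0.01 with −0.75 to 0.88. Falls made up 39 of 50 large-subunit and 29 of 34 small-subunit members. The other 12 members, Rpl11, Rpl13a, Rps9 and Rpl7a among them, were not called.

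Rpl12, a protein at the base of the stalk (chromosome 2, 32961712 to 32964045, GRCm38), had 51.5 and 52.8 CPM at day 4, against 209 and 203 at day 0. This was the largest fall of any tested member in the 4 comparisons (log2 fold change −1.98, SE 0.0869, adjusted p = 2.21e-12). Rpl29, another large-subunit protein, had 9.03 and 6.89 CPM at day 4, against 22.7 and 24.5 at day 0 (log2 fold change −1.56, SE 0.141, adjusted p = 3.11e-08). Rpl7l1, a relative of Rpl7 found in ribosome precursors, had 101 and 108 CPM at day 4, against 223 and 219 at day 0 (log2 fold change −1.08, SE 0.0585, adjusted p = 3.82e-11). The groups did not overlap for any of these genes. Rps19bp1, whose product binds Rps19 and the deacetylase Sirt1 and is not a ribosomal protein, had 19.6 and 21.3 CPM at day 4, against 40.7 and 39.7 at day 0 (log2 fold change −0.97, SE 0.0896, adjusted p = 3.98e-08).

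The acidic stalk, where Rplp0 anchors Rplp1 and Rplp2 and elongation factors dock, fell in all 3 genes. Rplp0 (chromosome 5, 115559467 to 115563729), which took more counts than any other member, had 1911 and 1996 CPM at day 4, against 2911 and 2862 at day 0 (log2 fold change −0.56, SE 0.0423, adjusted p = 2.82e-09). Rplp1 had 491 and 513 CPM at day 4, against 896 and 884 at day 0 (log2 fold change −0.83, SE 0.0478, adjusted p = 8.97e-11). Rplp2 had 261 and 278 CPM at day 4, against 325 and 350.2 at day 0 (log2 fold change −0.33, SE 0.0612, adjusted p = 0.000152). Both day 4 libraries lay below both day 0 libraries for all 3 genes.

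Rpl5 and Rpl11 bind the 5S ribosomal RNA and, outside the ribosome, the p53 regulator Mdm2. Rpl5 had 55.4 and 59.9 CPM at day 4, against 86.7 and 80.4 at day 0, and fell (log2 fold change −0.54, SE 0.0696, adjusted p = 2.81e-06). Rpl11 had 525 and 545 CPM at day 4, against 509 and 515 at day 0, and was not called (log2 fold change 0.06, adjusted p = 0.271). Among proteins that line the exit tunnel, Rpl4 had 1228 and 1266 CPM at day 4, against 1887 and 1898 at day 0 (log2 fold change −0.60, SE 0.0401, adjusted p = 5.8e-10). Rpl39, also of the tunnel, had 110.2 and 118 CPM at day 4, against 112 and 118 at day 0, and was not called (adjusted p = 0.881). In the small subunit, Rps6 had 899.8 and 919.7 CPM at day 4, against 1294 and 1300.5 at day 0 (log2 fold change −0.51, SE 0.0407, adjusted p = 6.08e-09) without overlap between the groups. Rpsa, also known as the laminin receptor precursor, had 795 and 816 CPM at day 4, against 1199 and 1199.7 at day 0 (log2 fold change −0.57, SE 0.0437, adjusted p = 3.41e-09).

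All 4 members that rose belong to the large subunit. Rpl36a, an X-linked gene (chromosome X, 134585654 to 134588062), had 152 and 152 CPM at day 4, against 124 and 132 at day 0 (log2 fold change 0.25, SE 0.0533, adjusted p = 0.000502). Rpl41, which encodes a very short basic protein, had 488 and 529 CPM at day 4, against 418 and 450.4 at day 0 (log2 fold change 0.23, SE 0.0558, adjusted p = 0.00157). Rpl37a had 174 and 197 CPM at day 4, against 165 and 166 at day 0 (log2 fold change 0.17, SE 0.0588, adjusted p = 0.0175), and Rpl7 714 and 719 at day 4, against 649.7 and 651 at day 0 (log2 fold change 0.14, SE 0.0424, adjusted p = 0.00724). Of these, Rpl36a alone was called whichever library was left out. Rpl41 was not called without day 4 replicate 2 (log2 fold change 0.12), and Rpl37a without day 0 replicate 1 (0.16), day 0 replicate 2 (0.17) or day 4 replicate 2 (0.03). Rpl7 was not called without day 0 replicate 1 (0.13), day 4 replicate 1 (0.10) or day 4 replicate 2 (0.09). The count of rises was accordingly 2 without day 0 replicate 1 and 1 without day 4 replicate 2.

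**Figure D3:**
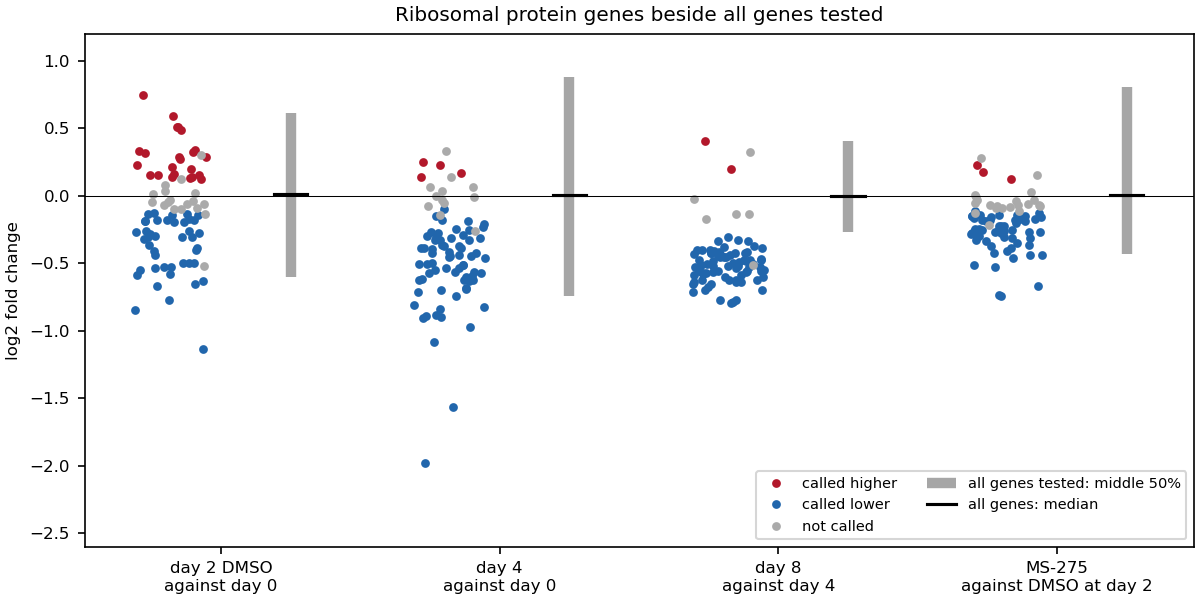
Log2 fold change of each tested member in 4 comparisons, coloured by call, beside the median and middle 50% of all 17789 tested genes. Members sit below 0 in most cases and divide into rises and falls with DMSO at day 2 against day 0.

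The DMSO libraries of day 2 were also set against day 0, and members moved in both directions. Only the day 2 groups list an added volume, and both do. Solvent, retinoic acid and time thus cannot be told apart in this comparison. Of 84 members, 43 fell and 23 rose, while 32.2% of all genes were called lower and 32.4% higher. The median log2 fold change was −0.14 with a middle 50% of −0.33 to 0.14, against 0.01 with −0.60 to 0.61 for all genes. This comparison uses the same day 0 libraries as the one at day 4, so they are not independent of each other. Rises numbered 15 without day 0 replicate 1, and fewer than 23 without any other library as well, so the smaller rises rest on all 4 libraries.

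Rpl36a led the rises, with 213 and 216 CPM with DMSO, against 124 and 132 at day 0 (log2 fold change 0.75, SE 0.0529, adjusted p = 2.45e-09). Rpl39 had 169 and 177 CPM with DMSO, against 112 and 118 at day 0 (log2 fold change 0.59, SE 0.0586, adjusted p = 1.71e-07). Rpl7 had 943 and 905 CPM with DMSO, against 649.7 and 651 at day 0 (log2 fold change 0.51, SE 0.0424, adjusted p = 2.01e-08). For each of these genes the DMSO libraries were the highest of all libraries. Rps29, a zinc-binding small-subunit protein, had 168 and 187 CPM with DMSO, against 123 and 127 at day 0 (log2 fold change 0.51, SE 0.0794, adjusted p = 2.98e-05). Rpl11 also rose, to 661 and 616 CPM with DMSO, against 509 and 515 at day 0 (log2 fold change 0.32, SE 0.0488, adjusted p = 2.44e-05). Its partner Rpl5 had 92.4 and 89.9 CPM with DMSO and 86.7 and 80.4 at day 0 and was not called (log2 fold change 0.13, adjusted p = 0.117).

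Falls at day 2 were led by Rpl12, with 92.9 and 95.02 CPM with DMSO, against 209 and 203 at day 0 (log2 fold change −1.13, SE 0.083, adjusted p = 3.68e-09). Rps19bp1 had 23.9 and 20.9 CPM with DMSO, against 40.7 and 39.7 at day 0 (log2 fold change −0.84, SE 0.0888, adjusted p = 3.4e-07). Rps18, a protein of the small-subunit head, had 58.0 and 58.5 CPM with DMSO, against 101 and 97.9 at day 0 (log2 fold change −0.77, SE 0.0688, adjusted p = 4.41e-08). Both DMSO libraries lay below both day 0 libraries for each of these genes. Rpl22l1, the paralog of Rpl22, had 52.7 and 59.3 CPM with DMSO, against 86.0 and 91.5 at day 0 (log2 fold change −0.67, SE 0.0814, adjusted p = 2.02e-06). Rplp0 and Rps6 fell less, with log2 fold changes of −0.17 (adjusted p = 0.0017) and −0.28 (adjusted p = 1.63e-05), and Rpsa with −0.28 (adjusted p = 2.47e-05).

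Day 8, labelled neurons, was compared with day 4, labelled progenitors, to ask what followed in the second step. Of 84 members, 76 fell and 2 rose, while 19.8% of all genes were called lower and 21.7% higher. The median log2 fold change was −0.51 with a middle 50% of −0.58 to −0.42, against 0.00 with −0.27 to 0.40 for all genes. Of the 77 proper members, 73 fell, and the others, Rps27, Rps2, Rpl5 and Rpl29, were not called. This comparison uses the same day 4 libraries as that of day 4 against day 0, so they are not independent of each other. A high value in the day 4 libraries adds both to a rise by day 4 and to a fall by day 8. The end of retinoic acid, the new medium and substrate, and time changed together between these groups and cannot be told apart.

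Rps20, which lies in the small-subunit head, had 246 and 234 CPM at day 8, against 408 and 422 at day 4 (log2 fold change −0.79, SE 0.0493, adjusted p = 1.72e-09). Rpl28 had 252.6 and 236 CPM at day 8, against 408 and 428 at day 4 (log2 fold change −0.78, SE 0.0651, adjusted p = 6.41e-08). Both genes had fallen by less than the median of the members at day 4, with log2 fold changes of −0.25 for Rps20 and −0.27 for Rpl28 against day 0. Rpl13a, also known for a role in silencing inflammatory mRNAs, had 798 and 719.9 CPM at day 8, against 1271 and 1318 at day 4 (log2 fold change −0.77, SE 0.0497, adjusted p = 2.58e-09), after a day 4 level that was not called against day 0. The stalk fell again, with log2 fold changes of −0.64 for Rplp0, −0.59 for Rplp1 and −0.70 for Rplp2 (adjusted p = 3.36e-09, 4.81e-08 and 1.39e-07). Rplp0 reached 1302 and 1202 CPM at day 8, the lowest of its 10 libraries. Rpl36a, Rpl41, Rpl37a and Rpl7, which had risen by day 4, all fell by day 8, with log2 fold changes of −0.67, −0.49, −0.52 and −0.40 (adjusted p at most 2.62e-06).

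Rpl12 fell less after day 4: it had 36.4 and 46.1 CPM at day 8, against 51.5 and 52.8 at day 4 (log2 fold change −0.34, SE 0.0923, adjusted p = 0.00722), and was not called without day 8 replicate 1 (log2 fold change −0.19). Neither gene that rose encodes a protein of the mature ribosome. Rps19bp1 (chromosome 15, 80260614 to 80264306) had 26.8 and 27.5 CPM at day 8, against 19.6 and 21.3 at day 4 (log2 fold change 0.41, SE 0.092, adjusted p = 0.00188). Rpl7l1 (chromosome 17, 46773907 to 46782656) had 117 and 123 CPM at day 8, against 101 and 108 at day 4 (log2 fold change 0.19, SE 0.0593, adjusted p = 0.0143). Both stayed below their day 0 levels. The rise of Rps19bp1 was called whichever library was left out, and that of Rpl7l1 was not called without day 4 replicate 1 (log2 fold change 0.13) or day 8 replicate 2 (0.15). The number of rises was 1 without day 8 replicate 2.

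The MS-275 libraries were set against the DMSO libraries to see what the deacetylase inhibitor did to these genes early in differentiation. The DMSO libraries are those already set against day 0, so these comparisons are not independent of each other either. Of 84 members, 60 fell and 3 rose, while 31.4% of all genes were called lower and 31.9% higher. The falls were small: the median log2 fold change was −0.19 with a middle 50% of −0.28 to −0.10, against 0.01 with −0.43 to 0.81 for all genes. With library totals in place of TMM factors, 28 members fell and 6 rose, the median of the members was −0.05 and that of all genes 0.14, so the falls are relative to the other genes. Under that scaling 4252 of all genes were called lower and 6713 higher, where TMM gave 5579 lower and 5677 higher. The mesenchyme markers summed to 503 and 461 CPM with MS-275, against 34.7 and 38.4 with DMSO, and their part in the falls was not tested. Most of that sum came from Col1a1, at 372 and 342 CPM with MS-275, and Col1a2, at 108 and 96.8. Of the 6 markers, 4 were called higher, 1 lower and 1 was not called. Dcn had 1.63 and 2.49 CPM with MS-275, against 4.50 and 4.78 with DMSO.

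The largest falls with MS-275 exceeded the shift between these scalings. Rpl29 had 9.41 and 9.51 CPM with MS-275, against 14.03 and 17.6 with DMSO (log2 fold change −0.74, SE 0.141, adjusted p = 0.00023). Rpl12 had 52.9 and 60.2 CPM with MS-275, against 92.9 and 95.02 with DMSO (log2 fold change −0.73, SE 0.0869, adjusted p = 1.57e-06). Both MS-275 libraries of Rpl12 were already near its day 4 level. Rpl30, known in yeast to bind its own transcript, had 224 and 241 CPM with MS-275, against 373 and 367 with DMSO (log2 fold change −0.67, SE 0.0508, adjusted p = 7.87e-09). Rpl27a had 214 and 222 CPM with MS-275, against 311 and 317 with DMSO (log2 fold change −0.53, SE 0.0498, adjusted p = 1.12e-07). Rps25, which some viral and cellular internal ribosome entry sites need, comes next in size and was chosen after its values were seen. It had 349 and 361 CPM with MS-275, 509.8 and 504 with DMSO and 352 and 369.8 at day 0 (MS-275 against DMSO log2 fold change −0.51, SE 0.0527, adjusted p = 2.91e-07). Its MS-275 libraries stood at the day 0 level, while DMSO stood above both.

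Rplp0 rose with MS-275, to 2910.0 and 2868 CPM, against 2573 and 2543 with DMSO (log2 fold change 0.18, SE 0.0421, adjusted p = 0.00167), and was called whichever library was left out. Its stalk partners did not rise: Rplp1 had 709.9 and 691 CPM with MS-275, against 784 and 776 with DMSO (log2 fold change −0.15, SE 0.0474, adjusted p = 0.00919), and was not called without MS-275 replicate 2 (log2 fold change −0.14). Rplp2 had 277 and 285 CPM with MS-275 and 306 and 290.2 with DMSO and was not called (log2 fold change −0.08, adjusted p = 0.242). Rpl22l1 had 60.7 and 70.1 CPM with MS-275, against 52.7 and 59.3 with DMSO (log2 fold change 0.23, SE 0.0822, adjusted p = 0.0247). Rps10, a small-subunit protein at the entry of the mRNA channel, had 508 and 492 CPM with MS-275, against 469.6 and 446 with DMSO (log2 fold change 0.13, SE 0.0496, adjusted p = 0.0339). Both rises depended on which libraries were kept: Rpl22l1 was not called without DMSO replicate 1 (0.14) or MS-275 replicate 2 (0.11). Rps10 was not called without DMSO replicate 2 (0.08), MS-275 replicate 1 (0.10) or MS-275 replicate 2 (0.15), nor without a filter on low counts (0.11). The number of rises was 1 without MS-275 replicate 2. Rps6 had 895 and 902 CPM with MS-275, against 1081 and 1063 with DMSO (log2 fold change −0.25, SE 0.0407, adjusted p = 4.09e-05), and Rpsa 788 and 799 with MS-275, against 1004 and 967 with DMSO (log2 fold change −0.31, SE 0.0436, adjusted p = 9.85e-06).

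Paralogs and like-named genes did not all move with the gene they are named after. CPM are not corrected for length, so most are given as a percentage of that gene within a library. Only the change of that percentage across libraries is described. Rpl22l1 stood at 29.5% and 31.3% of Rpl22 at day 0, 23.1% and 25.4% with MS-275 and 16.5% and 18.4% with DMSO at day 2, 21.0% and 21.2% at day 4 and 20.2% and 20.4% at day 8. The day 0 libraries were the highest and the DMSO libraries the lowest, and Rpl22 itself had 319 and 322 CPM with DMSO and 292 and 292 at day 0. Rpl7l1 stood at 34.3% and 33.7% of Rpl7 at day 0, 15.8% and 15.5% with MS-275 and 15.4% and 14.9% with DMSO at day 2, 14.1% and 15.1% at day 4 and 21.1% and 23.2% at day 8. Its percentage was lowest at days 2 and 4 and higher again at day 8. Rpl36al, an autosomal copy of the X-linked Rpl36a, stood at 73.8% and 70.9% of it at day 0, 49.6% and 47.9% with MS-275 and 53.9% and 50.5% with DMSO at day 2, 55.6% and 54.7% at day 4 and 63.1% and 61.5% at day 8. Rps19bp1, which is named after its partner Rps19 and is not a paralog of it, stood at 12.5% and 13.3% of Rps19 at day 8. It stood at 9.80% and 9.60% at day 0, with every other library lower. Rps27l, a paralog of Rps27 that p53 induces, had 63.1 and 61.6 CPM at day 0, 50.02 and 50.3 with MS-275 and 61.8 and 60.2 with DMSO at day 2, 36.4 and 40.8 at day 4 and 37.6 and 38.4 at day 8. It fell by day 4 (log2 fold change −0.69, SE 0.0732, adjusted p = 2.3e-07) and was not called between day 8 and day 4 (log2 fold change −0.02, adjusted p = 0.846).

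**Figure D4:**
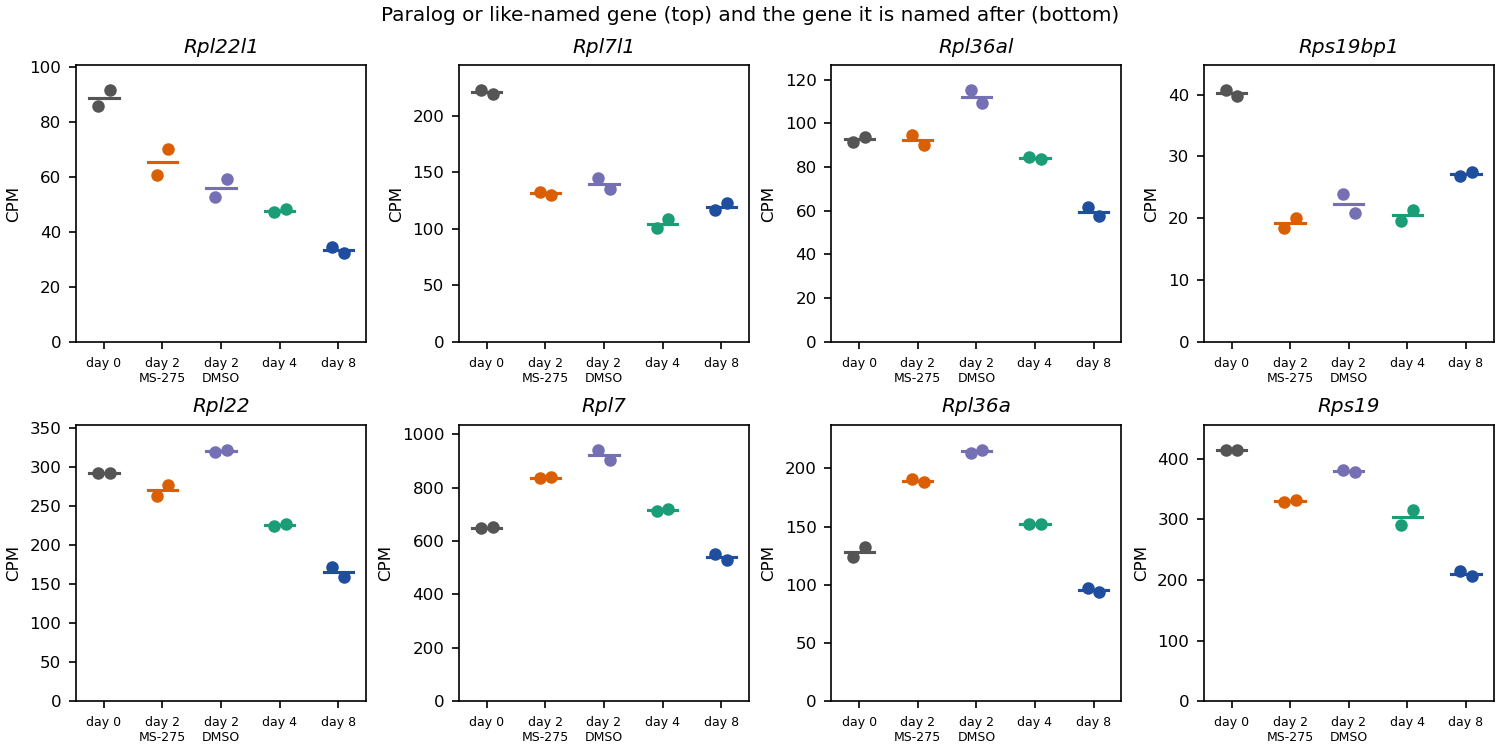
CPM in each library for Rpl22l1, Rpl7l1, Rpl36al and Rps19bp1 (top row) and for Rpl22, Rpl7, Rpl36a and Rps19 (bottom row); points are libraries and bars the mean of 2. Rpl7l1 and Rps19bp1 are higher at day 8 than at day 4, while the genes below them are lower.

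Some members could not be told from near copies by their counts. Rps27 and Rps27rt, a like-named copy on chromosome 9, share 19 bases in a row within the windows printed around their starts, shown in capitals (Rps27 at chr3:90213629-90213678 and Rps27rt at chr9:114982720-114982769, both minus strand). The Rps27 window ends with this stretch, so its full length was not measured.
Rps27: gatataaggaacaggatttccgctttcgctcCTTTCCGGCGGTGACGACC
Rps27rt: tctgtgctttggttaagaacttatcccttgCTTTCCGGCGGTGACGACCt

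Rps27 had 10.98 and 23.8 CPM at day 0, 22.7 and 6.62 with MS-275 and 4.82 and 19.6 with DMSO at day 2, 12.3 and 16.7 at day 4 and 16.0 and 4.24 at day 8. Its replicates differed by more than its groups, and no comparison called it. Rps27rt held most of the counts, with 183 and 186 CPM at day 0, 147 and 153 at day 4 and 97.5 and 111 at day 8. The sum of both was steady within groups, at 194 and 209.7 at day 0, 212 and 206 with MS-275 and 220.3 and 214 with DMSO at day 2, 159 and 169 at day 4 and 114 and 115 at day 8. How the authors' counting divided reads between the pair was not tested, so values of either gene alone are uncertain.

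Pseudogenes with a -ps symbol held more counts than the gene for 4 members, and these were singled out after their values were seen. Pseudogenes under other symbols were not searched, so other members may be affected too. Counts given to the -ps pseudogenes of Rps2 were 7828% of those given to Rps2, those of Rpl3 977%, those of Rps26 379% and those of Rpl10 154%. Rps2, at the entry of the mRNA channel, had 24.7 and 21.2 CPM at day 8 and 38.9 and 36.8 at day 0. Summed with its pseudogenes it reached 3907 ± 61.5 CPM at day 0, 2597 ± 74.8 with MS-275 and 2580.4 ± 94.8 with DMSO at day 2, 1533 ± 56.7 at day 4 and 1412 ± 70.0 at day 8, each a mean ± SD of 2 libraries. This mean was lower at each later day. Rpl3, next to the site where peptide bonds form, had 52.5 and 52.3 CPM at day 8 and 94.4 and 92.1 at day 0, and with its pseudogenes 996 ± 0.140 at day 0, 1242 ± 2.98 with DMSO at day 2 and 598 ± 12.9 at day 8. Rpl10, among the last proteins to join the large subunit, had 355 and 404 CPM with DMSO, against 327 and 328 at day 0 (log2 fold change 0.21, SE 0.0727, adjusted p = 0.0176). Summed with its pseudogenes it had 869.6 ± 10.3 CPM with DMSO and 916 ± 6.46 at day 0, and the log2 fold change was −0.07. That rise was also not called without day 0 replicate 1 (0.21), day 0 replicate 2 (0.21) or DMSO replicate 2 (0.12).

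Members varied unequally over the 5 groups. Among those with a mean of at least 10 CPM, Rpl12, Rpl29 and Rpl10 had the largest SD of the group means of log2 CPM, at 0.93, 0.64 and 0.60. Rpl7a, Rpl41 and Rpl11 had the smallest, at 0.19, 0.23 and 0.25. Rpl7a, a neighbour of the exit tunnel, had 973 and 972 CPM at day 0, 912 and 887 with MS-275 and 1027 and 938 with DMSO at day 2, 919 and 930.0 at day 4 and 725 and 686 at day 8. Both day 8 libraries lay below the other 8. Rplp0, Rpl4 and Rpl13a had the highest CPM of the tested members and Rpl37rt, Rpl29 and Rps27 the lowest, by counts that are not corrected for length and that leave out pseudogenes. With pseudogene counts added, Rps2 had 3907 ± 61.5 CPM at day 0 and Rplp0 2886 ± 34.8. A rank by this SD is a description, since levels of the same libraries set it.

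Members were also split by the pyrimidine run at their start. The median log2 fold change at day 4 against day 0 was −0.50 for the 22 tested members with a run and −0.38 for the 42 without. At day 8 against day 4 it was −0.49 with a run and −0.50 without, and with MS-275 against DMSO −0.21 with a run and −0.19 without. With DMSO against day 0 it was −0.19 with a run and −0.07 without, and 4 of 22 with a run and 15 of 42 without rose. At day 4 against day 0, 18 of 22 with a run and 32 of 42 without fell. Over all tested genes, 32.4% were called higher with DMSO against day 0 and 36.1% lower at day 4 against day 0. No test was made of these medians, and annotated starts can differ from those used in P19 cells.

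Genes named in Diamond-Blackfan anaemia, an inherited human failure of red cell production, are 20 members of both subunits. Of all members, 81.0% fell at day 4 against day 0 and 90.5% at day 8 against day 4. Of the 20, 17 (85%) fell at day 4 against day 0 (median log2 fold change −0.44) and 18 (90%) at day 8 against day 4 (−0.51). With DMSO against day 0, 10 (50%) fell and 4 (20%) rose, where 51.2% of all members fell and 27.4% rose. With MS-275 against DMSO 13 (65%) fell and 1 (5%) rose, where 71.4% of all members fell and 3.57% rose. The shares of these 20 thus lay near those of the members. Of all tested genes, 36.1% fell at day 4 against day 0 and 19.8% at day 8 against day 4. With DMSO against day 0, 32.2% of them fell and 32.4% rose, and with MS-275 against DMSO 31.4% fell and 31.9% rose.

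Other genes of the same machinery moved in part with the members. Rack1, a scaffold protein on the small subunit, had 2862 and 2793 CPM at day 0, 1664 and 1653 at day 4 and 1190.2 and 1127 at day 8 and fell at both steps (log2 fold change −0.77 at day 4 against day 0 and −0.52 at day 8 against day 4). Fau, which encodes Rps30, rose by day 4 to 317 and 329 CPM, against 254.1 and 263 at day 0 (log2 fold change 0.32, SE 0.0547, adjusted p = 5.83e-05), and fell by day 8 to 230.3 and 212 CPM (log2 fold change −0.54, SE 0.0549, adjusted p = 5.53e-07). Both fell with MS-275 against DMSO (log2 fold change −0.10 for Rack1 and −0.40 for Fau).

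Of all tested genes, 36.1% were called lower and 36.2% higher at day 4 against day 0, 19.8% and 21.7% at day 8 against day 4, 32.2% and 32.4% with DMSO against day 0, and 31.4% and 31.9% with MS-275 against DMSO. Of 18 translation factors and related genes of the TOP class, 12 (66.7%) fell and 4 (22.2%) rose at day 4 against day 0 (median log2 fold change −0.49), and 15 (83.3%) fell and 2 (11.1%) rose at day 8 against day 4 (−0.36). Eef2, the elongation factor that moves the ribosome along, had 4356 and 4465 CPM at day 4, against 7447 and 7114 at day 0 (log2 fold change −0.72, SE 0.045, adjusted p = 2.36e-10). Btf3, which guides new peptides, had 308 and 314 CPM at day 4, against 595 and 606 at day 0 (log2 fold change −0.95, SE 0.0442, adjusted p = 4.89e-12). Eif3h and Eif3f, subunits of initiation factor 3, went the other way. Eif3h had 381 and 379 CPM at day 4, against 204 and 199 at day 0 (log2 fold change 0.92, SE 0.0484, adjusted p = 2.76e-11), and Eif3f 322 and 320.2 at day 4, against 239 and 230.0 at day 0 (log2 fold change 0.45, SE 0.055, adjusted p = 1.18e-06). Other subunits of that factor in the list are not described here. At day 8, Tpt1, an abundant growth-related protein, had 348 and 328 CPM, against 547 and 528 at day 4 (log2 fold change −0.67, SE 0.0468, adjusted p = 7.14e-09). Hnrnpa1, an RNA-binding protein, had 1109 and 1183 CPM at day 8, against 1792 and 1797 at day 4 (log2 fold change −0.65, SE 0.0409, adjusted p = 1.97e-09). With MS-275 against DMSO, 13 (72.2%) fell and 4 (22.2%) rose (−0.28), and Pabpc1, which binds poly(A) tails, had 3059 and 2904 CPM with MS-275, against 1972 and 1933 with DMSO (log2 fold change 0.61, SE 0.0413, adjusted p = 2.01e-09). With DMSO against day 0, 4 (22.2%) fell and 9 (50%) rose (0.10).

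Genes that build ribosomes in the nucleolus had a larger fall by day 4, and their shares called at day 8 against day 4 lay near those of all genes. Of 41 such genes, 40 (97.6%) fell and 1 was not called at day 4 against day 0, with a median log2 fold change of −1.25. Ncl, which encodes nucleolin, had 613 and 619 CPM at day 4, against 2094 and 2105 at day 0 (log2 fold change −1.77, SE 0.0543, adjusted p = 1.97e-14). Wdr43, a factor of small-subunit assembly, had 78.6 and 75.2 CPM at day 4, against 276 and 275.1 at day 0 (log2 fold change −1.84, SE 0.081, adjusted p = 2.34e-12). Between day 8 and day 4, 6 (14.6%) fell and 9 (22%) rose with a median of −0.01, where the members had −0.51. Utp4 had 61.7 and 65.5 CPM at day 8, against 51.1 and 53.5 at day 4 (log2 fold change 0.28, SE 0.0623, adjusted p = 0.00158), and Polr1c, a subunit of RNA polymerases I and III, 63.4 and 68.4 at day 8, against 105 and 94.0 at day 4 (log2 fold change −0.59, SE 0.0712, adjusted p = 4.15e-06). With MS-275 against DMSO, 39 (95.1%) of 41 fell and 1 (2.44%) rose, with a median of −0.52. Rrs1 had 29.8 and 29.2 CPM with MS-275, against 75.2 and 77.2 with DMSO (log2 fold change −1.37, SE 0.0649, adjusted p = 3.08e-11), and Dkc1, which modifies ribosomal RNA, 72.5 and 72.1 with MS-275, against 173 and 178 with DMSO (log2 fold change −1.28, SE 0.0591, adjusted p = 2.28e-11). The rise was that of Nop10 (log2 fold change 0.19). With DMSO against day 0, 30 (73.2%) fell and 2 (4.88%) rose (median −0.37), the rises being Npm1 and Nop58.

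Proteins of the mitochondrial ribosome, encoded by 78 nuclear genes, fell in 46 (59%) cases and rose in 13 (16.7%) at day 4 against day 0 (median log2 fold change −0.34). Mrps27 had 25.1 and 24.8 CPM at day 4, against 77.4 and 79.9 at day 0 (log2 fold change −1.66, SE 0.0766, adjusted p = 4.63e-12), while Mrps6 had 38.1 and 36.5 at day 4, against 8.30 and 8.30 at day 0 (log2 fold change 2.17, SE 0.102, adjusted p = 6.11e-12). Between day 8 and day 4, 15 (19.2%) fell, 3 (3.85%) rose and 60 were not called (median −0.07). With MS-275 against DMSO, 49 (62.8%) fell and 8 (10.3%) rose (median −0.31), and Mrpl3 had 38.5 and 44.1 CPM with MS-275, against 81.5 and 84.6 with DMSO (log2 fold change −1.01, SE 0.0714, adjusted p = 3.59e-09). With DMSO against day 0, 34 (43.6%) fell and 21 (26.9%) rose (median −0.16). Pluripotency, neural progenitor, neuron and mesenchyme markers changed between the groups as given above, and their part in the changes was not tested.

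**Figure D5:**
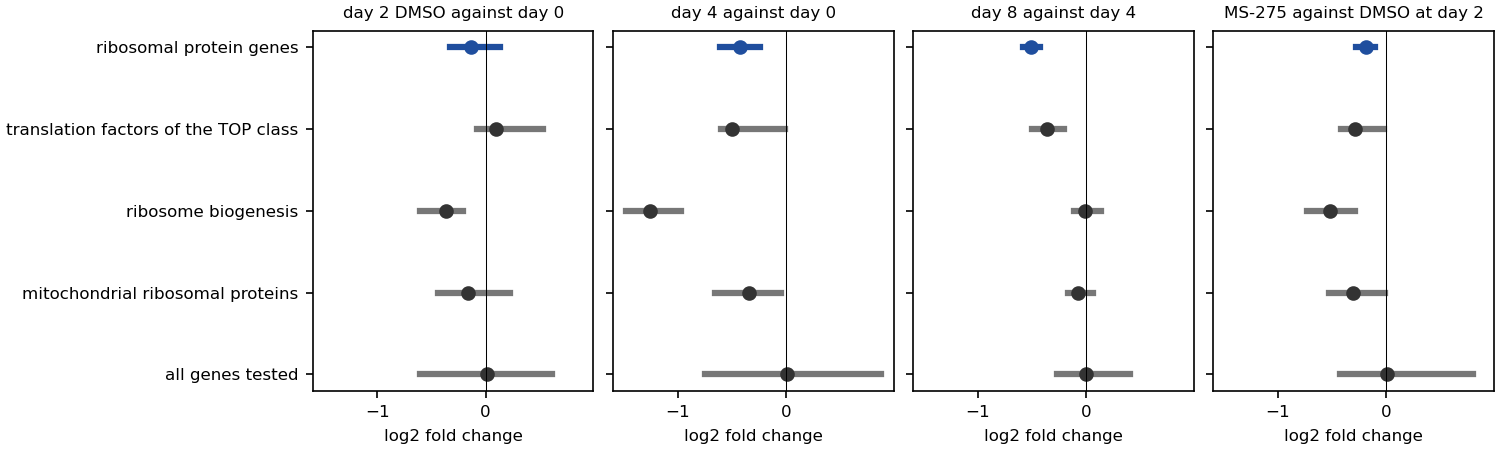
Median (point) and middle 50% (bar) of the log2 fold change for the ribosomal protein genes, 18 translation factors of the TOP class, 41 ribosome biogenesis genes, 78 mitochondrial ribosomal protein genes and all tested genes, in 4 comparisons. Biogenesis genes have the lowest median at day 4 against day 0, and the ribosomal protein genes the lowest at day 8 against day 4.

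Promoters of nearly all matched members carried the marks in the peak lists. A peak counted if it reached within 500 bases of an annotated start, and 64 tested members and 12358 tested genes had a start. H3K9ac and H3K9cr peaks stood at 62 of 64 members (96.9%) in both replicates of day 4, against 88.3% and 88.3% of all genes for H3K9ac and 87.1% and 87.1% for H3K9cr. Rpl37rt and Rps27rt were the members without one. H3K18la peaks stood at 61 and 62 members at day 4, against 75.5% and 76.7% of all genes. ATAC peaks stood at 62 and 58 members, against 76.3% and 73.7% of all genes. Within each list, the authors' fold enrichment at members had a median of 105 and 107 for H3K9ac, against 56.6 and 55.6 over all genes with a peak, and of 100.4 and 105 for H3K9cr, against 51.8 and 51.4. For H3K18la the medians were 7.74 and 7.41 at members, against 6.33 and 6.25, and for ATAC 8.84 and 8.01 at members, against 8.81 and 8.54. No test was made of these medians.

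With MS-275 at day 2, H3K9ac and H3K9cr peaks stood at 62 of 64 members, as with DMSO, against 90.7% and 89.9% of all genes with MS-275 and 85.9% and 85.8% with DMSO. The peaks were broader: their median width at members was 5198 bases with MS-275 and 2792 with DMSO for H3K9ac, and 5288.5 with MS-275 and 2625.5 with DMSO for H3K9cr. Over all genes with a peak the widths were 2656 bases with MS-275 and 1760.0 with DMSO for H3K9ac, and 2602 with MS-275 and 1738.5 with DMSO for H3K9cr. Within the lists, the authors' fold enrichment had a median of 23.7 at members and 14.3 over all genes with a peak for H3K9ac with MS-275, and of 119.7 and 40.9 with DMSO. For H3K9cr it was 25.4 at members and 14.1 over all genes with MS-275, and 115 and 43.3 with DMSO. H3K18la peaks stood at 26 members (40.6%) with MS-275 and 62 (96.9%) with DMSO, while 24.8% of all genes had one with MS-275 and 73.3% with DMSO. Each of these lists came from 1 library, so there is no replicate check, and the depth of the libraries is unknown here. The MS-275 lists held 84418, 70748 and 31577 peaks for H3K9ac, H3K9cr and H3K18la, and the DMSO lists 26555, 24874 and 36382. Those totals moved with the widths and shares at members, and their part in the difference was not tested.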

How the data were processed

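RNA was measured in 10 libraries of P19 cells, and peaks in 14 lists, 1 per library. The authors deposited estimated counts per gene that carry no scaling between libraries. The submitters' processing notes name Salmon 1.1.0. The sources used here do not give the step from transcripts to genes. The share of values that were not whole was 19.2% to 25.8% per library, and all were rounded. For the peaks, Bowtie2 2.4.1, MACS2 2.2.7.1 and the GRCm38 build are in the same notes. Per the file headers, each deposited list gives the pileup signal, the −log10 p-value and q-value and the fold enrichment (a ratio) of the authors' caller. Only position, q-value and fold enrichment were used. Symbols were matched for 55144 of 55385 identifiers.

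CPM used TMM factors. Errors are SD over 2 libraries. Tests used edgeR 4.0.16 (R 4.3.3): filterByExpr kept 17789 genes, 1 quasi-likelihood fit covered all 10 libraries in 5 groups, and calls needed an adjusted p under 0.05, by Benjamini and Hochberg's method across the whole table. The fit was tested on simulated data. Alternatives included DESeq2 1.42.0, other scalings, no filter, the 4 libraries compared alone, a replicate block, each library left out, and pseudogene counts added to members.

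The members and gene lists were chosen with earlier results of these data known. Named members were, per comparison, the 4 largest called rises and falls with a mean of at least 1 CPM, the paralogs and like-named genes with their relatives, the 3 highest and lowest by CPM, the 3 most and least variable above 10 CPM, and Rplp0, Rplp1, Rplp2, Rpsa, Rpl5, Rpl11 and Rps6. From other lists the text takes genes among the 2 largest called changes in each direction. Promoter sequences are RefSeq's (GRCm38.p6). Members with no entry included Rpl36, Rpl21, Rps29, Rpl23a, Rpl17, Rps14, Rps27a, Rpl3, Rpl29, Rplp1, Rpl32, Rpl8, Rps20, Rpl7 and Rpl30. A few genes that the rules would name are not reported here. Coordinates are 1-based. Transcript lengths were not used here, so CPM of different genes are not compared as levels.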

Additional observations from a re-analysis of the deposited data

How the results depend on the processing

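Counts of members that fell or rose stayed within 1.5 times the main count under DESeq2, RLE size factors, TMM factors without the members, no filter on low counts, pseudogene counts added, and the 4 libraries alone. The exception was MS-275 against DMSO with library totals in place of TMM, with 6 rises and 28 falls; the alternative's own scaling shifts all genes up there. RLE factors gave 16 rises and 47 falls with DMSO against day 0, where TMM gave 23 and 43. With 1 library left out, rises and falls ranged over 1 to 4 and 65 to 68 at day 4 against day 0, over 1 to 2 and 76 at day 8 against day 4, over 15 to 18 and 36 to 41 with DMSO against day 0, and over 1 to 2 and 45 to 57 with MS-275 against DMSO, with fewer samples tested. Rpl7a reversed with MS-275 under library totals (log2 fold change 0.011) and Rpl10 with DMSO against day 0 when pseudogenes were added (−0.075). Of the log2 fold changes of named members under an alternative, 75 were no longer past the threshold and 1339 kept their direction and side of it. Over all genes the replicate numbers did not pair the samples, with correlations of deviations between −0.03 and 0.04. Over the members they lay between −0.88 and 0.83, and over the members without Rps27 between −0.40 and 0.61. The value of 0.61 was that of DMSO with MS-275, so a pairing of those members is not excluded. The replicate block gave the main counts except for 69 falls at day 4 against day 0. For the peaks, members with a peak over the start itself came to 87.5% for H3K9cr replicate 1 and 62.5% and 79.7% for H3K18la at day 4. All tested genes with a start came to 77.4%, 45.5% and 51.6% there. With MS-275, such members came to 78.1%, 76.6% and 12.5% for H3K9ac, H3K9cr and H3K18la, and all genes to 69.7%, 63.2% and 5.44%. With DMSO the shares were 89.1%, 89.1% and 56.2% of members and 76.1%, 76.7% and 39.1% of all genes. With a −log10 q of at least 10, H3K18la peaks at day 4 stood at 75% and 84.4% of members, against 51.5% and 58.8% of all genes. ATAC peaks stood at 70.3% and 51.6% of members, against 54.9% and 47.2% of all genes. H3K18la peaks with MS-275 stood at 7.81% of members, against 2.53% of all genes. The cause was not tested. Only 2 libraries a group limit the precision of each fold change.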

Other observations

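Of all tested genes, 36.1% were called lower and 36.2% higher at day 4 against day 0, 19.8% and 21.7% at day 8 against day 4, 32.2% and 32.4% with DMSO against day 0, and 31.4% and 31.9% with MS-275 against DMSO. Of 17 genes of mTORC1 and its control of TOP mRNAs, 10 (58.8%) fell and 6 (35.3%) rose at day 4 against day 0 (median log2 fold change −0.25). Deptor, an inhibitor of mTOR, had 1.94 and 1.94 CPM at day 4, against 42.3 and 43.2 at day 0 (log2 fold change −4.45, SE 0.12, adjusted p = 3.63e-15). Eif4ebp1, which blocks cap-dependent translation until mTORC1 phosphorylates it, had 53.9 and 44.5 CPM at day 4, against 354 and 341 at day 0 (log2 fold change −2.82, SE 0.0802, adjusted p = 7.32e-15). With MS-275 against DMSO, 9 (52.9%) fell and 3 (17.6%) rose (median −0.19). Deptor had 78.4 and 74.5 CPM with MS-275, against 14.9 and 15.8 with DMSO (log2 fold change 2.32, SE 0.0833, adjusted p = 1.31e-12), and Sesn2, an inhibitor of mTORC1 when leucine is short, 106 and 94.1 with MS-275, against 34.1 and 36.1 with DMSO (log2 fold change 1.51, SE 0.123, adjusted p = 1.88e-08). Between day 8 and day 4, 4 (23.5%) fell and 3 (17.6%) rose, and with DMSO against day 0, 8 (47.1%) fell and 5 (29.4%) rose.

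In the Myc network, 6 (60%) of 10 genes rose and 2 (20%) fell at day 4 against day 0 (median 0.85). Mxd3, which opposes Myc, had 25.8 and 29.4 CPM at day 4, against 2.10 and 1.57 at day 0 (log2 fold change 3.90, SE 0.185, adjusted p = 6.21e-12), and Mycn 59.9 and 60.4 at day 4, against 154 and 142 at day 0 (log2 fold change −1.30, SE 0.0716, adjusted p = 4.67e-11). Myc itself had 59.1 and 59.3 CPM with DMSO at day 2, against 14.1 and 16.1 at day 0 (log2 fold change 1.97, SE 0.0961, adjusted p = 1.9e-11). Among 6 host genes of small nucleolar RNAs, which also have TOP starts, 5 (83.3%) fell and 1 (16.7%) rose at day 4 against day 0 (median −1.03), with Snhg1 at 101 and 107 CPM at day 4, against 356 and 362 at day 0 (log2 fold change −1.79, SE 0.0604, adjusted p = 6.86e-14).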
